A study of Mus musculus with 20 samples.

Results

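Nr2f1, Nr2f2, Prox1 and Htr3a are genes that mark the caudal ganglionic eminence (CGE) and the interneurons born there. They were taken by name, as 4 of 22350 protein-coding genes, and each was measured over its gene body with 100 kb on either side, called its window here. Within each window the lists of enriched regions of 4 histone marks were compared between wild-type and Nkx2-1 mutant embryos, beside the wild-type peaks of the transcription factors NKX2-1 and LHX6. Covered length is the number of bases of a window that lie inside regions of a mark.

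All tissue came from mouse embryos at embryonic day 13.5. H3K27ac, H3K4me1, H3K4me3 and H3K27me3 were immunoprecipitated from the medial ganglionic eminence (MGE) of C57BL/6 embryos, either wild type or labelled Nkx2-1cKO, a conditional knockout called the mutant here. The Cre driver of that allele and the number of embryos pooled are not given in the sources used here. NKX2-1 and LHX6 were immunoprecipitated from the basal ganglia of wild-type CD-1 embryos, so strain and dissection differ between the factor peaks and the marks. Of 20 samples, 10 have a peak list, and each antibody and genotype has 1 library. No value therefore has a replicate error, no test between genotypes was possible, and every difference describes these libraries. In dissected tissue, a change in the cells present and a change within cells cannot be told apart.

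The ganglionic eminences are the progenitor zones of the embryonic ventral forebrain. The MGE, which depends on the homeodomain factor NKX2-1 and its target LHX6, makes most parvalbumin and somatostatin interneurons, and the CGE makes interneurons that carry the serotonin receptor subunit 5-HT3A. Nr2f1 and Nr2f2 encode the orphan nuclear receptors COUP-TFI and COUP-TFII, which pattern the forebrain and guide interneuron migration. Prox1 encodes a homeodomain factor needed by CGE interneurons as they mature, and Htr3a encodes the serotonin-gated channel subunit that labels them. H3K27ac marks active enhancers and promoters, H3K4me1 marks enhancers, H3K4me3 marks promoters, and H3K27me3 is laid down by Polycomb complexes at silenced genes. Genes with H3K4me3 and H3K27me3 on the same stretch are often called bivalent.

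All 4 genes lie on the minus strand of NCBIM37 (mm9), so downstream means lower coordinates. Nr2f1 (ENSMUSG00000069171.7) lies at chr13:78328234-78339018 with 4 coding start sites, and its window also holds part of Fam172a and the noncoding genes A830082K12Rik and Gm8327. Nr2f2 (ENSMUSG00000030551.7) lies at chr7:77496832-77511621 with 2 coding start sites, and B130024G19Rik lies upstream of it. Prox1 (ENSMUSG00000010175.6) lies at chr1:191945660-191994559, and the noncoding gene Gm17566 starts beside its promoter on the other strand. Htr3a (ENSMUSG00000032269.7) lies at chr9:48707319-48719204, and its window also reaches Zbtb16, the sister subunit gene Htr3b, and Usp28.

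Printed below are the summits of the NKX2-1 peaks in these windows and the strongest H3K27ac region that was lost at Prox1. Promoter sequences of Htr3a and Nr2f2, where H3K4me3 and H3K27ac differed in form between genotypes, are printed too. Each was read from the reference genome. The NKX2-1 peak in the Nr2f1 window is shown at chr13:78239506-78239706 and the one downstream of Htr3a at chr9:48704009-48704209, both on the plus strand and centred on the summit. The lost region in the Prox1 gene body is shown at chr1:191977022-191977222 on the plus strand. The 200 bases before the Htr3a start site are shown at chr9:48719205-48719404 and those before the distal Nr2f2 start site at chr7:77511622-77511821, both on the minus strand. Capitals mark the 4-letter homeodomain core TAAT on either strand (ATTA where read on the other strand), and adjoining or overlapping matches run together.

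Nr2f1 NKX2-1 peak: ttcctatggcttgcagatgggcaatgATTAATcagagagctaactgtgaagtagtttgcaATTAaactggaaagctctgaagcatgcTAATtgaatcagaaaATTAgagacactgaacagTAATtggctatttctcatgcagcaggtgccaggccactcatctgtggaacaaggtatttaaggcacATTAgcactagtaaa
Htr3a NKX2-1 peak: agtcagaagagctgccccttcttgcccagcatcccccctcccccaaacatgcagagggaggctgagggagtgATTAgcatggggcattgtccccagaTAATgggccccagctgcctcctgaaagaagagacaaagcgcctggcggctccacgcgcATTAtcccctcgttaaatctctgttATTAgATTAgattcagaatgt
Prox1 lost H3K27ac region: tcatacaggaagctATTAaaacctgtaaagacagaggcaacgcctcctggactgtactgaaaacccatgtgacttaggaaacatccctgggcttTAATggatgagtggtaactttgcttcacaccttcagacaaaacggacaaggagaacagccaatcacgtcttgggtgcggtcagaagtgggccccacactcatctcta
Htr3a promoter: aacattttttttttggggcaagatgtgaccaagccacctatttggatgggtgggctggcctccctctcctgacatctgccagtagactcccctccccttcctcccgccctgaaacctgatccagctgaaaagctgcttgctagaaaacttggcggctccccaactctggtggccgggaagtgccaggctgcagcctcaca
Nr2f2 promoter: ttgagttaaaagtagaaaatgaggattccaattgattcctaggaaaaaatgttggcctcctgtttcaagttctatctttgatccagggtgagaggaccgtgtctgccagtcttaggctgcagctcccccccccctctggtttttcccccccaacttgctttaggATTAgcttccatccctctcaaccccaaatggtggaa

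None of the 5 sequences lies on an exon. The Nr2f1 peak holds 7 TAAT cores, and 7 or more were found in 3.801% of all NKX2-1 summit windows of 201 bases and in 13.9% of LHX6 windows. The Htr3a peak holds 5, and 5 or more were found in 11.9% of NKX2-1 windows. The lost Prox1 region holds 2, and 2 or more were found in 19.2% of wild-type H3K27ac windows. The Htr3a promoter holds none and the Nr2f2 promoter 1, where 43.6% of promoters of that length hold at least 1. The TAAT core was counted after these sequences had been seen. No sequence holds the NK2 core (CACTTGA or CACTCAA), the LIM core (TAATTA or TAATGA) or the nuclear receptor site AGGTCA on either strand. Among all NKX2-1 windows these were found in 21.4%, 25.8% and 6.39%, and among LHX6 windows in 8.55%, 41.6% and 6.91%. Among H3K27ac windows the shares were 4.61%, 8.94% and 11.8%, and among promoters 4.12%, 8.98% and 10.1%. A match describes letters in the window, and a missing one says nothing of the factor's binding.

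The libraries held 26.8 to 89.1 M tags (M, mega) after removal of duplicates, with 28.3% and 34.0% duplicates in wild-type and mutant H3K4me3 and at most 6.96% in the others. Regions covered more of the genome in the mutant for every mark: 1.12 times as much for H3K27ac, 1.10 times for H3K4me1, 1.22 times for H3K4me3 and 1.32 times for H3K27me3. The median gene tested had a mutant to wild-type ratio of 1.06, 1.01, 1.13 and 1.21 in that order (log2 0.09, 0.01, 0.18 and 0.28), so values are read against those shifts. Within 2.5 kb of their start sites, H3K27ac was found at 6 of 6 MGE, 5 of 5 lateral ganglionic eminence (LGE) and 5 of 5 CGE markers in both genotypes, and at 0 of 4 pallial, 0 of 3 endothelial and 0 of 3 microglial markers. Its summed length there went from 27.9 to 19.6 kb at the MGE markers, from 13.4 to 19.7 kb at the LGE markers and from 14.9 to 14.2 kb at the CGE markers, which include the 4 genes described here. The MGE sum fell mostly at Lhx6 (5.001 to 0.78 kb) and Lhx8 (4.52 to 1.11 kb), and less at Sox6 (4.78 to 3.86 kb). Dlx1 (5.001 kb in both) and Dlx2 (4.045 and 3.82 kb) hardly differed. The LGE sum rose mostly at the striatal gene Ebf1 (0.25 to 3.50 kb) and at Isl1 (2.13 to 4.56 kb), and less at Foxp1 (2.055 to 2.70 kb). Meis2 (4.94 and 5.001 kb) and Gsx2 (3.98 and 3.95 kb) hardly differed. The Nkx2-1 promoter kept the mark (4.58 and 5.001 kb), and peak lists do not show whether the gene was deleted.

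The 4 genes split into pairs that differed in opposite ways. At Nr2f1 and Nr2f2, the COUP-TF genes, H3K27ac and H3K4me3 covered more of the window in the mutant. H3K27me3 there differed little as a ratio (1.02 and 1.07), although at Nr2f2 the difference was 4.815 kb. At Prox1 and Htr3a, H3K27ac covered less and H3K27me3 more. H3K4me3 there had ratios of 1.08 and 0.96, beside 1.13 for the median gene. A change was counted where the longer cover was at least 1.5 times the shorter and the difference at least 1 kb, among genes with at least 1 kb in either genotype. With 1 library a group this size rule stands in for a test. By it H3K27ac rose at 1 of the 4 genes (Nr2f2) and fell at 2 (Prox1 and Htr3a), where 7.76% of all genes tested rose and 2.19% fell. H3K4me1 passed the rule at 0 of the 4 in either direction, with 4.05% up and 0.669% down over all genes. H3K4me3 rose at 1 (Nr2f2) and fell at 0, with 5.48% and 0.172% over all genes. H3K27me3 rose at 2 (Prox1 and Htr3a) and fell at 0, with 23.3% and 1.54% over all genes, so an H3K27me3 increase past the rule was common in these libraries.

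**Figure D1:**
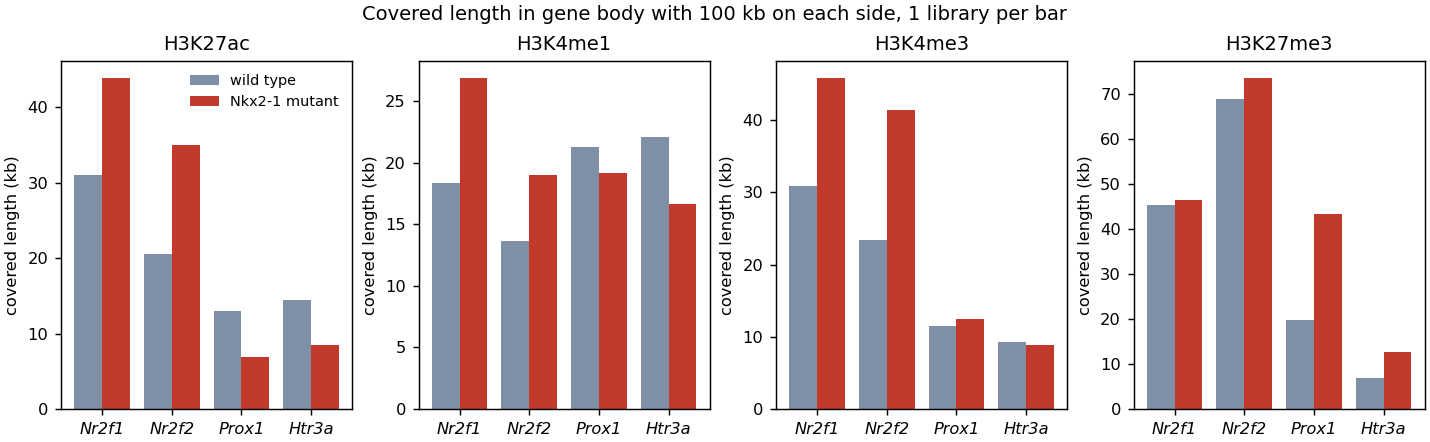
Bars give the covered length in kb of each mark in the window of each gene, in wild type (grey) and in the mutant (red), 1 library per bar and no error bars. H3K27ac and H3K4me3 bars are taller in the mutant at Nr2f1 and Nr2f2, and the H3K27ac bars shorter and the H3K27me3 bars taller at Prox1 and Htr3a.

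The combination at Nr2f2, more H3K27ac together with more H3K4me3, was found at 426 genes (1.91% of all). The combination at Prox1 and Htr3a, less H3K27ac together with more H3K27me3, was found at 120 genes (0.537%). Neighbouring genes share windows, so these are not counts of independent places.

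Nr2f1, which forms high-to-low gradients across the forebrain, carried much of each mark in wild-type MGE. H3K27ac covered 31.1 kb of its window in wild type against 44.0 kb in the mutant, a ratio of 1.42. The difference of 12.9 kb ranks 114 from the top among 22350 genes, although the ratio stays under the size rule. The number of H3K27ac regions went from 27 to 24 while the longest went from 4.68 to 8.14 kb, so separate regions became fewer and longer. Fold below is the authors' enrichment over input of 1 region, and a place in a list is by the authors' p, both read within 1 list only. H3K4me3 covered 31.0 kb in wild type against 45.9 kb in the mutant (ratio 1.48, rank 12 from the top). H3K4me1 covered 18.4 and 26.9 kb (ratio 1.46, rank 218 from the top), and H3K27me3 45.4 and 46.4 kb (ratio 1.02). All 3 active marks thus differed by similar ratios at Nr2f1, and the Polycomb mark by less than the median gene.

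The promoters of Nr2f1 show the change in form. In wild type its 4 coding start sites lay under separate H3K4me3 regions of 4.42, 1.76 and 6.20 kb. In the mutant a single region of 23.0 kb at chr13:78328629-78351650 spanned all of them and nearly the whole gene body. It ranks 5 by length among 43648 mutant H3K4me3 regions, and its fold of 40.6 is above 94.2% of that list. Wild-type H3K4me3 already lay on 18182 of its 23022 bases, so most of it joined separate wild-type regions. H3K4me3 cover of the gene body differed little (wild type 9.88 kb, mutant 10.4 kb). At the first start site, H3K27ac lay in a region of 1.996 kb in wild type against 0.99 kb in the mutant, and within 2.5 kb of it covered 4.10 and 4.39 kb. Most of the added H3K27ac lay farther downstream, beyond the end of the gene, where it went from 15.1 to 23.1 kb, and H3K4me3 there from 12.8 to 22.8 kb.

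Nr2f2, the sister gene with a strong role in caudal and ventral telencephalon, had the larger ratios. H3K27ac covered 20.6 kb in wild type against 35.0 kb in the mutant (ratio 1.70, rank 84 from the top). H3K4me3 covered 23.4 and 41.5 kb (ratio 1.77, rank 6 from the top), with the longest region going from 8.47 to 17.4 kb. When every pair of lists was shortened to the same covered length, the H3K4me3 ratio was 1.45, and within 10 kb of the gene it was 1.47, both just under the size rule. H3K4me1 covered 13.6 and 18.9 kb (ratio 1.39, rank 470 from the top) and H3K27me3 68.9 and 73.7 kb (ratio 1.07, rank 881 from the top). Nr2f2 carried the longest H3K27me3 cover of the 4 genes, 32.1% of its window in wild type, and kept it in the mutant.

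The distal start site of Nr2f2, whose upstream sequence is printed above, had no H3K27ac region over it in wild type. A wild-type region of 1936 bases with a fold of 7.92 ended 0.153 kb downstream of this site. In the mutant a region of 2.60 kb at chr7:77509495-77512091 covered the site, with a fold of 11.2. H3K27ac cover within 2.5 kb of the distal site was thus present in both lists (wild type 2.79 kb, mutant 4.22 kb). H3K4me3 over the distal site went from a region of 2.48 kb to the region of 17.4 kb, which also held the proximal start site and ranks 13 by length in its list. Wild-type H3K4me3 already lay on 13488 of its 17381 bases. At the proximal site H3K27ac went from a region of 0.75 kb to a region of 4.46 kb. Separate wild-type H3K27ac regions already lay on 3868 bases of that mutant region. H3K27ac cover within 2.5 kb of the proximal site thus differed little (wild type 4.38 kb, mutant 4.89 kb). H3K27me3 over the distal site had the same extent in both genotypes, 11.2 and 11.3 kb. The distal start site was thus covered by H3K27ac, H3K4me3 and H3K27me3 in the mutant list, and by the latter pair in the wild-type list.

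**Figure D2:**
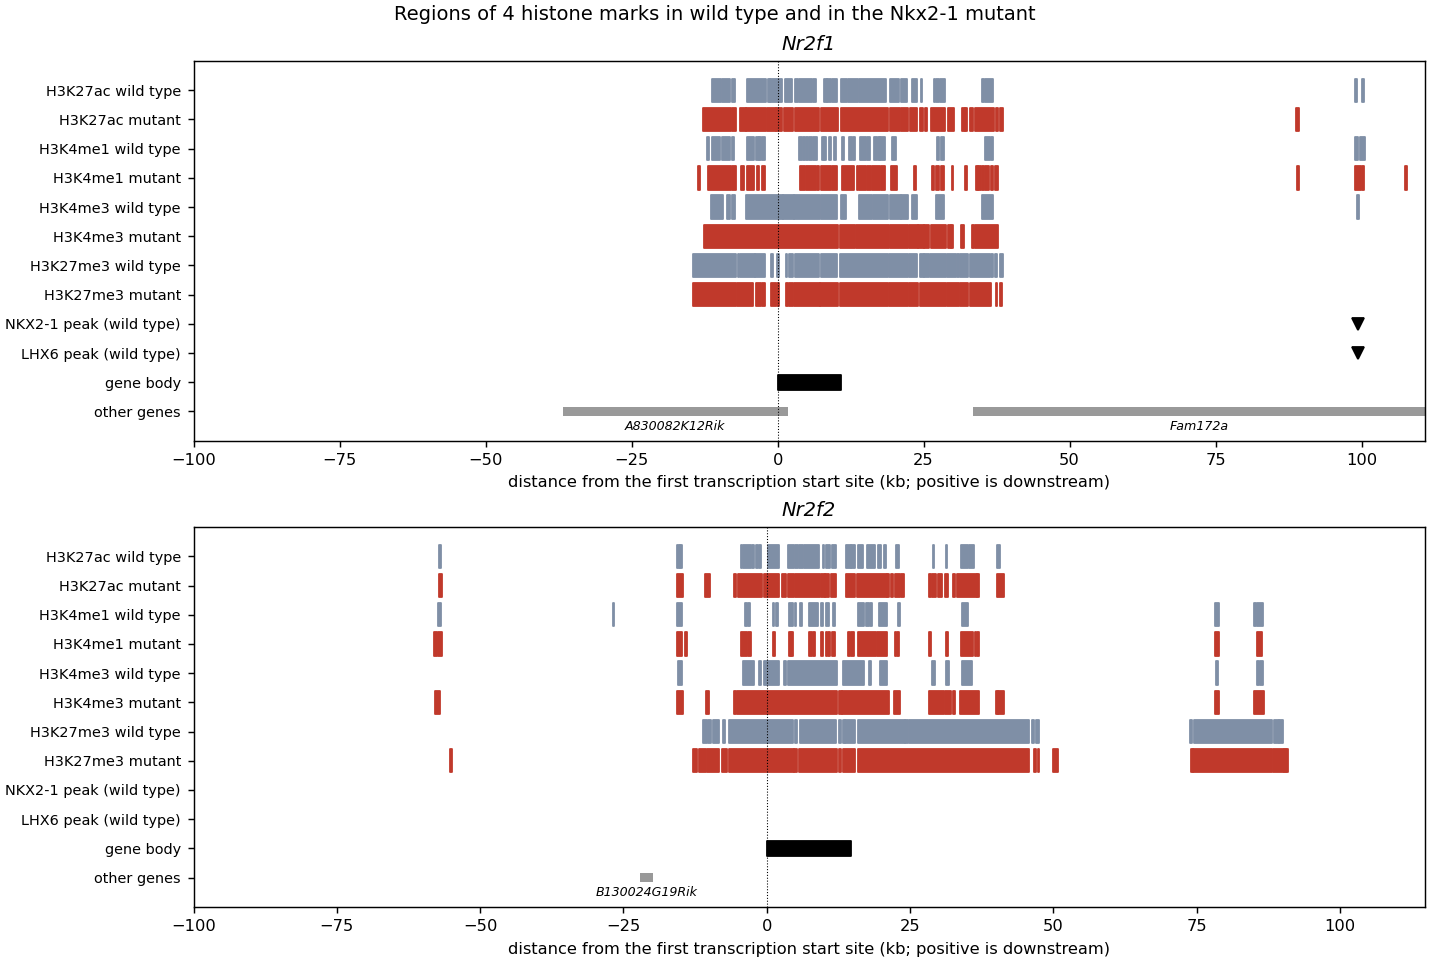
Each bar is a region of 1 mark, placed by its distance in kb from the first start site, in wild type (grey) and the mutant (red), with factor peaks as triangles, the gene body in black and other genes in grey. Near both genes the mutant H3K27ac and H3K4me3 bars fill gaps between wild-type bars, inside a stretch under H3K27me3 in both genotypes, and the NKX2-1 and LHX6 peaks of the Nr2f1 window sit at its far downstream edge.

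The added active marks at both COUP-TF genes fell mostly on stretches that carried H3K27me3 in wild type. At Nr2f1, 13.7 kb gained H3K27ac and 0.79 kb lost it, and 90.3% of the gained bases lay under wild-type H3K27me3. At Nr2f2, 14.4 kb gained H3K27ac and 0.01 kb lost it, with 91.9% under wild-type H3K27me3. Over the whole genome that share was 6.25% of 16.6 Mb of gained H3K27ac. For H3K4me3, 15.2 kb were gained at Nr2f1 and 18.0 kb at Nr2f2, with 86.4% and 89.6% under wild-type H3K27me3, beside 11.3% over the genome. For H3K4me1 the shares were 90.9% and 84.9%, beside 4.40%. H3K4me1 gained 10.4 kb and lost 1.85 kb at Nr2f1, and gained 8.23 kb and lost 2.897 kb at Nr2f2. Its gene-body cover rose at Nr2f1 (3.67 to 5.25 kb) and fell at Nr2f2 (4.74 to 3.801 kb). Within 2.5 kb of the proximal Nr2f2 start site it fell from 2.61 to 1.49 kb. Existing regions that widened gave 60.0% of the gained H3K27ac at Nr2f1 and 67.1% at Nr2f2, and 77.1% and 70.6% of the gained H3K4me3.

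The overlap itself was already present in wild type. H3K27ac and H3K27me3 shared 28.1 kb at Nr2f1 in wild type against 40.2 kb in the mutant, which is 90.5% and 91.3% of the H3K27ac there. At Nr2f2 they shared 18.9 and 32.5 kb, 92.2% and 93.0% of the H3K27ac. Over the genome 5.14% of wild-type and 7.04% of mutant H3K27ac bases also carried H3K27me3. H3K27me3 without any active mark went from 14.0 to 3.19 kb at Nr2f1 and from 42.9 to 33.9 kb at Nr2f2. These lists come from mixed tissue, so both marks on the same bases need not come from the same cells.

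**Figure D3:**
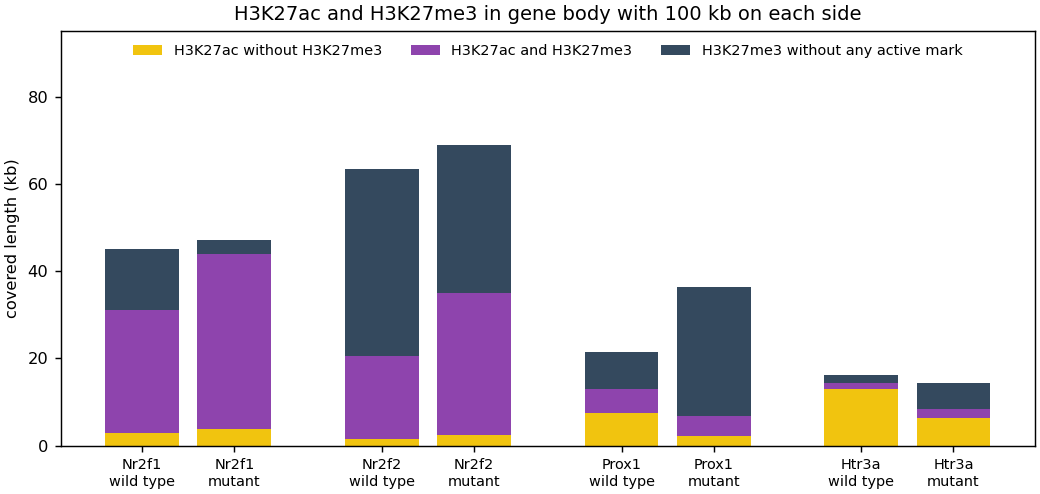
Stacked bars give, per gene and genotype, the covered length in kb of H3K27ac without H3K27me3, of both marks together, and of H3K27me3 without H3K27ac, H3K4me1 or H3K4me3, from 1 library per mark and genotype. The shared part is taller in the mutant at Nr2f1 (28.1 and 40.2 kb) and Nr2f2 (18.9 and 32.5 kb), and H3K27me3 without active marks is taller at Prox1 (8.46 and 29.4 kb) and Htr3a (1.67 and 5.93 kb).

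Counted by region, a wild-type region was lost where no mutant region of the mark overlapped it by 1 base, and gained in the reverse case. Over the 4 windows 18 of 88 wild-type H3K27ac regions were lost, where 19.4% of the whole list was lost, and 22 of 75 mutant regions were gained, where 29.6% of the list was. For H3K4me1, 19 of 105 were lost and 29 of 107 gained, with 15.2% and 23.8% over the lists. For H3K4me3, 3 of 45 were lost and 16 of 42 gained, with 3.65% and 28.1%. For H3K27me3, 0 of 68 were lost and 35 of 87 gained, with 15.7% and 46.6%. The totals hide how the H3K27ac regions fall by gene. Nr2f1 and Nr2f2 together lost 2 H3K27ac regions and gained 19, and Prox1 and Htr3a together lost 16 and gained 3. All 35 gained H3K27me3 regions but 5 were at Prox1 (23) and Htr3a (7), and the other 5 were at Nr2f2.

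Of the 9 gained H3K27ac regions at Nr2f1, 8 lay on wild-type H3K27me3, as did 10 of 10 at Nr2f2. The strongest at Nr2f1 was at chr13:78301272-78301697, 33.9 kb downstream of the nearest start site in a Fam172a intron, with a fold of 7.73, above 74.9% of the list. It also carried H3K4me1 and H3K4me3 in the mutant and neither in wild type. Next came intergenic regions at chr13:78313382-78313805 (fold 6.33) and chr13:78306996-78307482 (fold 6.21), both with mutant H3K4me3. At Nr2f2 the strongest were intergenic at chr7:77478718-77479113 and intronic at chr7:77508263-77508949, each with a fold of 5.04. Gained H3K4me3 lay on wild-type H3K27me3 in 6 of 6 regions at Nr2f1 and 7 of 8 at Nr2f2, where the strongest, at chr7:77498568-77499023 with fold 12.6, overlaps an exon of the gene.

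Prox1 went the other way. H3K27ac covered 13.0 kb in wild type against 6.93 kb in the mutant, a ratio of 0.53 against 1.06 for the median gene, ranking 280 from the bottom of 22350. H3K27me3 covered 19.7 kb in wild type against 43.4 kb in the mutant, a ratio of 2.20 against a median of 1.21, ranking 28 from the top. H3K4me1 covered 21.3 and 19.1 kb (ratio 0.90) and H3K4me3 11.5 and 12.5 kb (ratio 1.08). With lists shortened to the same covered length the ratios were 0.40 for H3K27ac, 1.63 for H3K27me3 and 0.84 for H3K4me3, whose direction turned. The number of H3K27me3 regions at Prox1 went from 21 to 37.

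The Prox1 promoter itself kept its active marks. H3K27ac lay over the start site in a region of 2.71 kb in wild type against 2.50 kb in the mutant. H3K4me3 there was 6.39 kb long in the wild-type list and 8.32 kb in the mutant list. Most of the loss lay in the gene body, where H3K27ac went from 9.45 to 4.90 kb while H3K27me3 went from 8.82 to 25.03 kb. Upstream of the gene H3K27me3 went from 10.9 to 18.3 kb. The stretch between 10 and 20 kb downstream of the start site held 3.22 kb of H3K27ac in wild type against 0.34 kb in the mutant, and 1.34 and 7.44 kb of H3K27me3.

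In total 6.68 kb lost H3K27ac at Prox1, 5.19 kb of it within 25 kb of the start site. H3K27me3 lay on 59.0% of the lost bases in the mutant, where over the genome it lay on 6.70% of lost H3K27ac bases. Within the Prox1 window, however, it lay on 66.4% of the H3K27ac bases of the mutant list and on 42.0% in wild type. Lost bases thus carried it no more often than the H3K27ac bases still listed in the mutant. In wild type H3K27me3 was already on 2.18 of those 6.68 kb, against 3.94 kb in the mutant. H3K4me1 stayed on 3.72 kb of them. Conversely, 23.9 kb gained H3K27me3 and 0.18 kb lost it, with 13.0 kb in new regions. An active mark in wild type had covered 20.8% of the gained bases, beside 24.1% over the genome, so most of the added H3K27me3 fell on bases that no list of active marks had covered.

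The strongest lost H3K27ac region at Prox1, part of which is printed above, was 898 bases long at chr1:191976828-191977725, 16.8 kb downstream of the start site, with a fold of 5.86, above 65.6% of its list. It overlaps an exon of Prox1, carried H3K4me1 in wild type and not in the mutant, and carried H3K27me3 in both. The next, at chr1:191976038-191976673 in an intron, had a fold of 4.94, lost H3K4me1 too, and carried H3K27me3 in the mutant alone. Around its summit 74% of base steps are CA or AC, a simple repeat, so it is not printed. The third, at chr1:191991467-191991887, lies 2.67 kb downstream and kept H3K4me1, H3K4me3 and H3K27me3. Over the 9 lost regions, 7 had H3K27me3 in the mutant and 4 in wild type, and 6 kept H3K4me1. The strongest gained H3K27me3 region was 1781 bases long at chr1:191980510-191982290, in an intron 12.3 kb downstream, with fold 5.39. The next were intronic too, at chr1:191965992-191966816 (fold 5.11) and chr1:191987074-191987620 (fold 4.42), and neither overlapped an active mark in either genotype.

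Htr3a shared the direction of Prox1 in smaller lengths. H3K27ac covered 14.5 kb of its window in wild type against 8.52 kb in the mutant (ratio 0.59, rank 286 from the bottom). H3K4me1 covered 22.1 and 16.7 kb (ratio 0.75, rank 218 from the bottom). H3K4me3 covered 9.23 and 8.87 kb (ratio 0.96), and H3K27me3 6.82 and 12.7 kb (ratio 1.87). With lists of the same covered length the H3K27me3 ratio was 1.45, under the size rule, and that of H3K27ac was 0.45. H3K4me1 passed the size rule downwards, with ratios of 0.63 to 0.64, within 50 kb, at the stricter p limit and at the same covered length.

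The Htr3a promoter changed in form. The H3K27ac region over its start site was 2.44 kb long in the wild-type list and 0.53 kb in the mutant list. An H3K4me3 region of 536 bases at chr9:48718864-48719399, with a fold of 6.80, lay over the start site in wild type and was absent from the mutant list. H3K4me1 there was 1.25 and 0.91 kb long. No H3K27me3 region lay within 2.5 kb of the start site or in the gene body in either genotype. A region missing from a list was below the authors' p limit, which does not show that the mark was absent.

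The wider Htr3a window is shared with other genes. H3K27ac went from 1.601 to 0.42 kb in the gene body, from 7.46 to 4.91 kb upstream and from 5.42 to 3.19 kb downstream. Of 6.74 kb that lost H3K27ac, 10.97% carried H3K27me3 in the mutant, against 59.0% at Prox1. Of the H3K27ac bases in the mutant list of the Htr3a window, 25.1% carried it. The added H3K27me3 lay mostly away from Htr3a: between 70 and 80 kb downstream, at the start of Zbtb16, it went from 5.12 to 6.30 kb, and between 50 and 60 kb upstream, in Htr3b, from 0.99 to 2.30 kb. The strongest gained region was nearer, 1082 bases at chr9:48706214-48707295 just past the end of the gene, with a fold of 4.97. Within 10 kb of the gene H3K27ac was 7.44 kb in wild type against 4.03 kb in the mutant, and between 10 and 20 kb from the start site H3K27me3 was 0.32 and 2.07 kb.

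**Figure D4:**
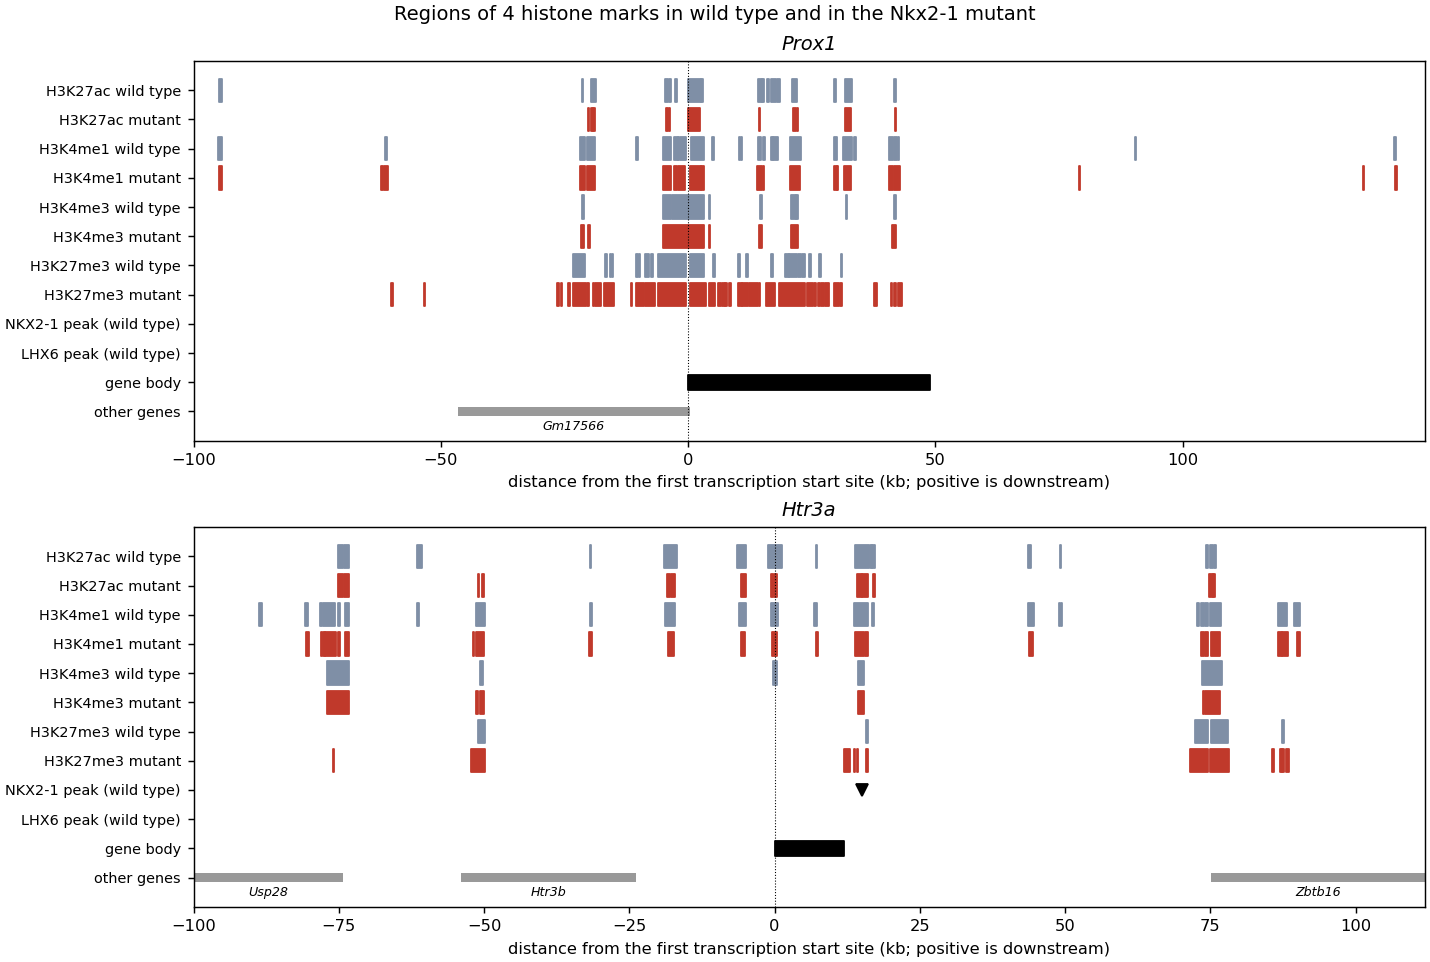
Bars are regions of each mark by distance in kb from the first start site, in wild type (grey) and the mutant (red), with factor peaks as triangles, the gene body in black and other genes in grey. Around Prox1 the mutant H3K27me3 row fills the gene body while H3K27ac bars drop out between 10 and 20 kb, and at Htr3a the H3K4me3 bar at the start site is present in wild type only.

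The 4 windows held 2 NKX2-1 peaks and 1 LHX6 peak. NKX2-1 had a peak in 44% of all gene windows and LHX6 in 6.53%, so with 4 genes no difference from other genes is read from these counts. The NKX2-1 peak in the Nr2f1 window, at chr13:78239367-78239865 with a fold of 11.2, is above 97.9% of its list by p. It shares 432 bases with the LHX6 peak at chr13:78239176-78239798 (fold 9.01, above 90.2% of its list), and their summits are 53 bases apart. Both lie in a Fam172a intron, 99.4 and 99.5 kb downstream of the first Nr2f1 start site and near the edge of the window, and which gene they bear on was not tested.

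Both H3K27ac regions that Nr2f1 lost lay at that place, against the direction of the rest of the window. They were 432 bases at chr13:78239737-78240168 with fold 4.48, which overlaps the NKX2-1 peak, and 307 bases at chr13:78238603-78238909 with fold 3.91. By p these were above 46.7% and 31.9% of the wild-type list. The H3K4me3 region that was lost, 266 bases at chr13:78239514-78239779 with fold 4.12, lies under both peaks. It was weak, above 4.12% of its list by p. H3K4me1 remained at both lost H3K27ac regions in the mutant, and no H3K27me3 was found there in either genotype.

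The NKX2-1 peak near Htr3a, at chr9:48703957-48704251, lies 15.1 kb downstream of the start site, past the end of the gene. Its fold of 3.81 is low, and it is above 24.8% of its list by p. H3K27ac, H3K4me1 and H3K4me3 lay on it in both genotypes. Nr2f2 and Prox1 had no peak of either factor within 100 kb: the nearest NKX2-1 peak lay 372 kb downstream of Nr2f2 and 283 kb downstream of Prox1, and the nearest LHX6 peak 3264 kb and 484 kb upstream. The differences at Nr2f2 and Prox1, among the largest of the 4 genes, were thus measured in windows without a listed peak of NKX2-1 or LHX6.

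**Figure D5:**
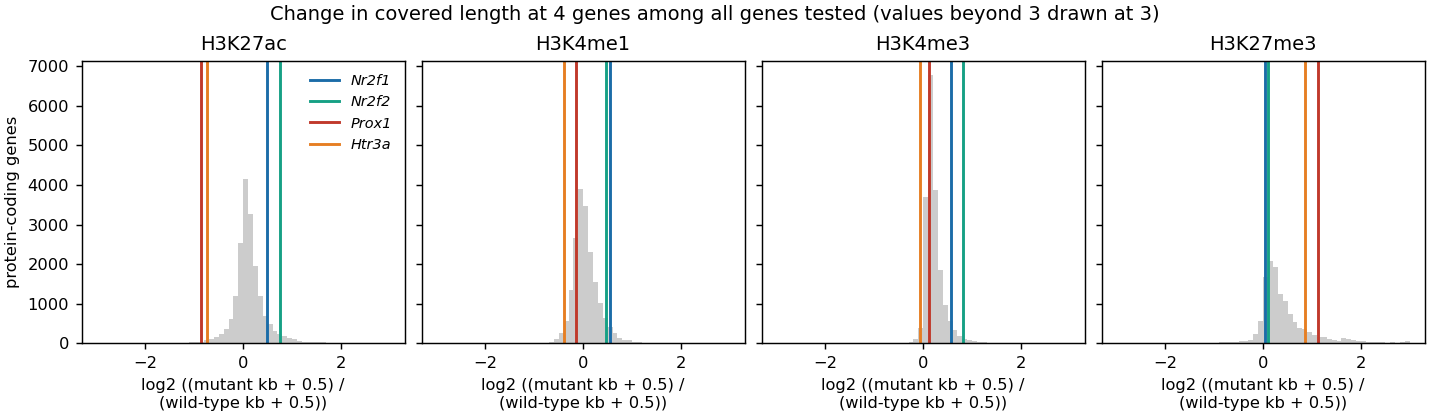
Grey histograms count protein-coding genes by log2((mutant kb + 0.5)/(wild-type kb + 0.5)) of covered length, 1 panel per mark, and vertical lines mark the 4 genes. For H3K27ac, Prox1 (-0.86) and Htr3a (-0.73) lie left of most genes and Nr2f1 (0.49) and Nr2f2 (0.75) right, and for H3K27me3 the order of the pairs is reversed (1.12 and 0.85 against 0.03 and 0.10).

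A list of 32 other genes was drawn up around the CGE, its interneurons and their progenitors, and 32 were found in the annotation. It is not limited to CGE genes. Nr2f6 and Prox2, family members of the genes above, are in it, and both rose in H3K27me3. Dlx1 and Dlx2, in it too, were counted above as MGE markers. Dlx5 and Dlx6 had the same values in every mark, so the counts below are not of independent places. H3K27ac rose at 5 of 32 and fell at 2, where 7.76% of all genes tested rose and 2.19% fell, with a median ratio of 1.07 beside 1.06 for all genes. H3K4me1 rose at 3 of 32 and fell at 0, beside 4.05% and 0.669%, with a median of 1.05 beside 1.01. H3K4me3 rose at 1 of 32 and fell at 0, beside 5.48% and 0.172%, with a median of 1.17 beside 1.13. H3K27me3 rose at 12 of 31 tested and fell at 0, beside 23.3% and 1.54%, with a median of 1.31 beside 1.21. Reln, which encodes the matrix protein reelin, rose from 4.37 to 9.28 kb in H3K27ac, to 16.7 from 10.8 kb in H3K4me1, and from 4.62 to 12.7 kb in H3K27me3. Zfpm2, a cofactor of GATA and COUP-TF proteins, rose in H3K27ac from 4.33 to 8.08 kb and in H3K4me1 from 8.60 to 13.4 kb. Cnr1, the cannabinoid receptor of cholecystokinin interneurons, had 2.99 and 5.61 kb of H3K27ac, 2.94 and 4.69 kb of H3K4me1, and 2.29 and 3.90 kb of H3K27me3, wild type first, and passed the rule in each.

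Cck, the neuropeptide of many CGE interneurons, fell in H3K27ac from 11.03 to 5.23 kb. Htr3b fell from 15.9 to 10.03 kb in H3K27ac and rose from 4.58 to 9.05 kb in H3K27me3, but its window overlaps that of Htr3a. Adarb2, an RNA-binding protein that labels CGE-derived neurons, went from 0 to 6.85 kb of H3K27me3. Npas3, a transcription factor of interneuron progenitors, rose in H3K27me3 from 5.01 to 10.9 kb. Tshz1 and Bcl11b, zinc finger genes also expressed in the LGE, rose in H3K27me3 from 5.21 to 8.40 kb and from 0.64 to 2.95 kb. H3K27ac went from 10.8 to 15.8 kb at Adarb2 and from 6.15 to 9.04 kb at Tshz1. It went from 43.8 to 34.2 kb at Npas3, from 70.3 to 62.9 kb at Bcl11b and from 36.3 to 52.6 kb at Tshz2. None of these H3K27ac differences passed the size rule. In kb, the falls at Npas3 and Bcl11b exceeded that at Prox1, and the rise at Tshz2 exceeded that at Nr2f2. The CGE and LGE factor Sp8 had 3.58 and 3.64 kb of H3K27ac and 21.1 and 24.5 kb of H3K27me3.

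The genes most like each of the 4 were found by Euclidean distance over the log2 ratios of the 4 marks. They were sought among 18542 genes tested in at least 3 marks, leaving out the gene itself and those whose windows overlap its own. Nearest to Nr2f1 were Bcar3 (distance 0.06), Gap43 (0.08) and Zranb3 (0.08). Gap43 and Zranb3 had no H3K27me3 in either genotype, where Nr2f1 had 45.4 kb in wild type. Nearest to Nr2f2 were Synpr (0.12), 4930525F21Rik (0.12) and Mab21l2 (0.15), of which Mab21l2 alone had H3K27me3, 27.9 and 32.0 kb. Nearest to Prox1 were Gm6613 (0.17), Ptprb (0.24) and Acot12 (0.24), and Gm6613 went from 17.4 to 9.40 kb of H3K27ac and from 10.8 to 23.9 kb of H3K27me3. Nearest to Htr3a were Slc10a1 (0.18), Agap1 (0.21) and Cgnl1 (0.21). The measure uses ratios and not levels, over 1 library per mark and genotype.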

How the data were processed

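Of 20 mouse libraries, the peak lists of 10 were used, and 10 input and IgG libraries without a list were not analysed here. Samples were grouped by antibody and genotype. Per the submitters' processing notes, the authors' tools were MACS2 2.1.0 and BWA 0.6.2, with bcl2fastq 1.8.4 and CASAVA 1.8.2, and the build was mm9. Per the file headers, regions were called on merged alignments against input at a p-value limit of 1e-05, with no fragment model and no local background, 1 tag kept per position and tags extended to 250 bases. The deposited values are the pileup, a signal of extended tags at the summit, the −log10 p-value and the fold enrichment, a ratio over input. The deposited −log10 q-value was not used, because according to the headers no q-values were calculated. Depth is the authors' count of tags kept, per the file headers.

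Summits with the same ends were merged into 1 region with the strongest summit's values. Lists were limited to chromosomes 1 to 19 and X. Covered length, overlap of at least 1 base and ranks over all genes (GENCODE vM1) were computed in Python 3.11.15 (pandas 2.3.3, numpy 2.4.6, pysam 0.24.0), and plotted with matplotlib 3.10.9. Covered length, region counts and the size rule were checked on the wild-type H3K27ac list. Lengths were compared with base-by-base counts, and the size rule was tried on windows from which regions had been removed. The split into lost and gained regions was not checked this way. Log ratios had 0.5 kb added to both lengths. Folds and p ranks are read within a list, since depth and input differ between lists. The genes and lists were chosen with earlier results of these data known. Named by rule were the 4 genes, genes in their windows, up to 10 genes of the CGE list past the size rule by largest change, the 3 most alike genes, regions at start sites, up to 3 lost and 3 gained regions per mark by −log10 p, and every factor peak. Sp8, Tshz2, Nr2f6, Prox2 and the Dlx genes were named outside that rule after their values were seen, as were the MGE and LGE markers given singly. The values of 1 gene of the CGE list are not reported here.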

Additional observations from a re-analysis of the deposited data

How the results depend on the processing

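The direction of a gene and mark turned in 1 case, H3K4me3 at Prox1, which did not pass the size rule and whose ratio was 0.84 with lists of the same covered length against 1.08 as reported. Of 80 such values 66 kept their side of the size rule, 6 passed it newly and 8 dropped under it. Of the counts over the 4 genes, 59 stayed within 1.5 times and 35 did not. With 50 kb on each side H3K4me1 fell at 1 gene, and NKX2-1 peaks numbered 1 and LHX6 peaks 0. With 10 kb, H3K27ac regions lost and gained were 9 and 7, H3K4me1 10 and 7, gained H3K4me3 3 and gained H3K27me3 17, H3K4me3 rose at 0 genes, and NKX2-1 and LHX6 peaks were 1 and 0. At −log10 p of at least 10, 9 H3K27ac and 5 H3K27me3 regions were lost, H3K4me1 rose at 2 genes (Nr2f1 and Nr2f2) and fell at 1 (Htr3a), and H3K4me3 rose at 2 (Nr2f1 and Nr2f2). With lists of the same covered length, 14 H3K27ac, 17 H3K4me1, 3 H3K4me3 and 3 H3K27me3 regions were gained, 11 H3K4me3 and 10 H3K27me3 regions were lost, H3K4me1 fell at 1 gene, H3K4me3 rose at 0 and H3K27me3 at 1 (Prox1). With a limit of 2 times, H3K27ac rose at 0 and fell at 0 genes, H3K4me3 rose at 0 and H3K27me3 at 1 (Prox1). With 50% overlap 3 H3K27me3 regions were lost. With regions within 1 kb counted as shared, 8 H3K27ac, 15 H3K4me1, 10 H3K4me3 and 21 H3K27me3 regions were gained.

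No paired analysis was possible because each antibody and genotype has 1 library and the numbers of the inputs pair no peak lists. Single libraries, 28.3% and 34.0% duplicates in H3K4me3 and longer mutant lists for every mark limit each comparison. Peak lists hold no signal below the p limit.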
